A study of Mus musculus with 6 samples.

Results

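The glutathione transferases, carboxylesterases and aldehyde dehydrogenases are enzymes that detoxify reactive and foreign compounds, and 48 of their genes and of 5 companion genes were compared between a pair of mouse hypothalamic cell lines. Genes were taken by name from the annotation of the array. The symbols begin with Gsta, Gstm, Gstp, Gstt, Gsto, Gstz or Gstk, with Mgst, with Ces and a number, or with Aldh, and Nqo1, Gclc, Gclm, Gsr and Hmox1 were added. Aldh1a1, Aldh1a2, Aldh1a3 and Aldh1l1 were left out. The 48 genes were read by 71 probe sets, among 12393 genes and 20380 probe sets that the annotation gives to 1 gene alone. Every gene with such a name was kept whatever its value, but the families themselves were selected on the A_212 minus N_46 differences of these same arrays, which were already known. Calls on single members below therefore describe the size of a difference against the spread between plates, and nothing about the families is supported by them.

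The line A_212 was derived from adult hypothalamus and the line N_46 from embryonic hypothalamus. Both were immortalised with the SV40 T-antigen, a viral oncoprotein, both are labelled as expressing Npy, the gene of the appetite peptide neuropeptide Y, and the labels name no treatment. Each line was grown on 3 plates with 5% fetal bovine serum to 70% confluence, and 5 µg of total RNA per plate went to 1 array each, 6 in all. Since each age is represented by 1 line, the age of the donor tissue and any other trait of a line cannot be told apart, and p-values measure the spread between plates. Serum and the viral oncoprotein are common to both lines, and the 6 samples hold no primary tissue.

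Glutathione transferases join the tripeptide glutathione to electrophiles such as lipid peroxidation products and drugs, and are grouped into soluble classes (alpha, mu, pi, theta, omega, zeta), a kappa class of mitochondria and peroxisomes, and membrane-bound enzymes (Mgst). Carboxylesterases hydrolyse ester and amide bonds of drugs and lipids and are best known from liver and intestine. Aldehyde dehydrogenases oxidise aldehydes to acids. Many genes of these families, and those of glutathione synthesis, are targets of NRF2 (gene Nfe2l2), a transcription factor that the adaptor KEAP1 holds down until oxidants or electrophiles release it, and that binds the antioxidant response element.

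Values are on a log2 scale and centred, so that the 6 arrays of a probe set have 0 as their median. They compare arrays for 1 gene and hold no expression level, so they do not show whether a gene was expressed, and they allow no comparison of levels between genes. Where the lines do not overlap, the centring makes the innermost arrays of the lines mirror each other. No source gives the base of the logarithm, and 2 is taken from the RMA method. Differences are A_212 minus N_46, with the standard error (SE) of limma fitted over all 12393 genes, and a gene is called at an adjusted p under 0.05 (Benjamini-Hochberg over all genes).

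Of the 48 genes, 13 were higher and 12 lower in A_212 than in N_46, and 23 did not pass the test. The 25 called genes (52.1%) stand beside 39.2% of all genes called either way, 18.3% higher and 20.9% lower in A_212. At a difference of at least 2-fold, 5 members were higher and 3 lower, where 5.83% of all genes were called either way, 3.61% higher and 2.22% lower. The lines did not overlap in 31 of 48 members, against 51.1% of all genes. The median difference of the members was -0.0030, against -0.06 over all genes, and the median absolute difference was 0.37, against 0.17. Of the 71 member probe sets, 16 were higher and 19 lower in A_212 (49.3% called). Of all 20380, 37.4% were called, 17.8% higher and 19.6% lower. At 2-fold, 5 were higher and 3 lower (background 5.97%, with 3.63% higher and 2.34% lower). In 40 of the 71 the lines did not overlap, against 49.7% of all. Members went both ways in most families, as the plot of all member differences shows: 5 higher and 5 lower of 18 soluble and kappa transferases, 1 and 2 of 3 membrane-bound ones, 0 and 2 of 9 carboxylesterases, 5 and 3 of 13 aldehyde dehydrogenases, and 2 and 0 of the 5 companion genes.

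**Figure D1:**
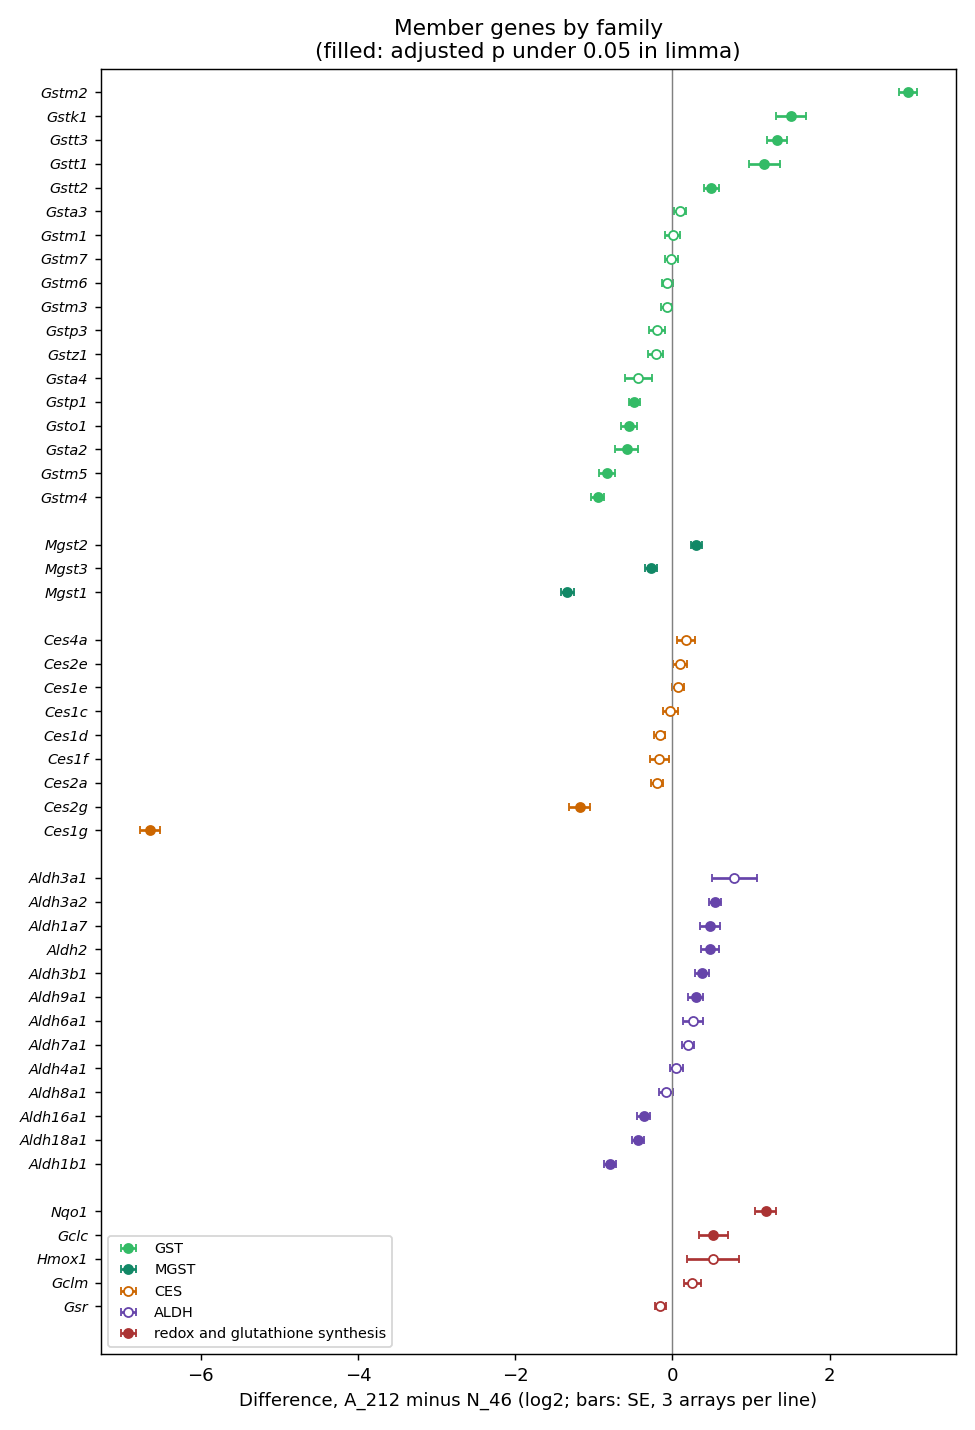
Difference of each of the 48 member genes, A_212 minus N_46, on the log2 scale, with the SE over 3 arrays per line, by family. Filled points passed the limma test. Ces1g at -6.65 and Gstm2 at 3.0 lie farthest out, and each family except the carboxylesterases and the companion genes has called genes on both sides of 0.

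The carboxylesterase Ces1g had the largest difference of all members and was lower in A_212. Its centred values were -3.13, -3.21 and -3.18 in A_212, against 3.13, 3.67 and 3.63 in N_46. The lines lay far apart and the A_212 plates were nearly equal. The difference was -6.65 ± 0.13 (SE, n = 3 per line), or 100.4-fold. Ces2g, a member of the second carboxylesterase subfamily, had -0.55, -0.84 and -0.36 in A_212, against 0.71, 0.36 and 0.71 in N_46. All A_212 plates were lower, and the difference was -1.18 ± 0.13, or 2.26-fold. The other 7 carboxylesterases had differences between -0.20 and 0.17 and were not called. They include Ces1c, which encodes an esterase secreted into plasma (-0.03, 95% interval -0.23 to 0.18), and Ces1d, which encodes a triacylglycerol hydrolase (-0.16, -0.32 to -0.0024). Of these 7, 3 were called when 1 array was left out, Ces1f at -0.30 and Ces2a at -0.25 without A_212 replicate 3, and Ces4a at 0.32 without A_212 replicate 1. How many of all uncalled genes were called in the same way was not counted, so this is no trait of the family. Ces1c, Ces1d, Ces1e, Ces1f and Ces1g follow each other on chromosome 8 with 0 other protein-coding genes between them in the RefSeq table, and among these neighbours Ces1g alone was called as a gene. Of the 3 probe sets of Ces1d, 1 was called at -0.26 with the lines apart, and the others gave -0.16 and -0.07 with no call.

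**Figure D2:**
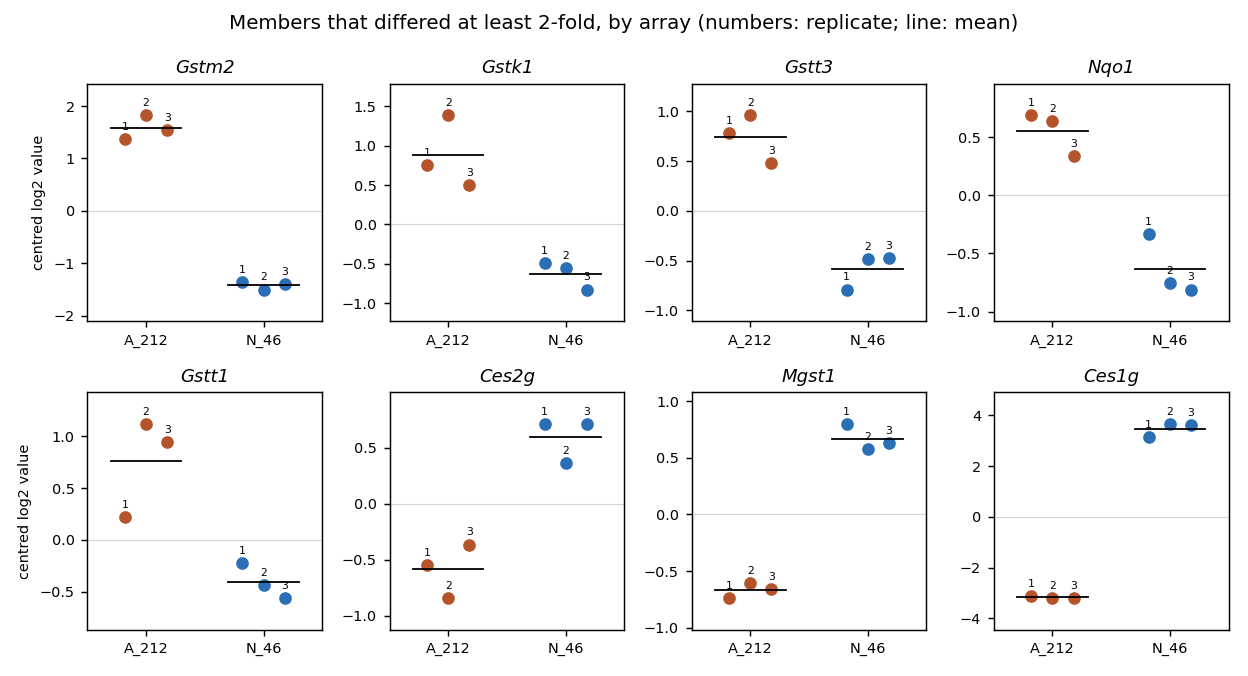
Centred log2 value of each array for the 8 members called with at least a 2-fold difference, A_212 left and N_46 right, with replicate numbers beside the points and the mean as a line. The lines are separate in all 8, and Gstt1 and Gstk1 spread widest within A_212.

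Gstm2, a transferase of the mu class, had the largest difference of the members that were higher in A_212. It had 1.36, 1.83 and 1.54 in A_212, against -1.36, -1.50 and -1.40 in N_46. The lines were well separated, with a difference of 3.0 ± 0.11, or 7.99-fold. The mu genes lie side by side on chromosome 3 in the order Gstm5, Gstm7, Gstm6, Gstm3, Gstm2, Gstm1, Gstm4, with 0 other protein-coding genes between them. Gstm3 and Gstm1, the neighbours of Gstm2, differed by -0.07 ± 0.07 and 0.0069 ± 0.09 and were not called, with 95% intervals of -0.22 to 0.08 and -0.20 to 0.22. The genes at both ends of the row were lower in A_212. Gstm5 had -0.60, -0.28 and -0.60 in A_212, against 0.28, 0.41 and 0.33 in N_46, a difference of -0.83 ± 0.10. Gstm4 had -0.60, -0.46 and -0.39 in A_212, against 0.39, 0.55 and 0.46 in N_46, a difference of -0.95 ± 0.08. Gstm6 and Gstm7, at -0.07 and -0.01, were not called. Mu genes are close relatives, and probe sets of 1 gene may take signal from another. The 4 probe sets of Gstm1 ranged from -0.15 to 0.14, with none called.

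**Figure D3:**
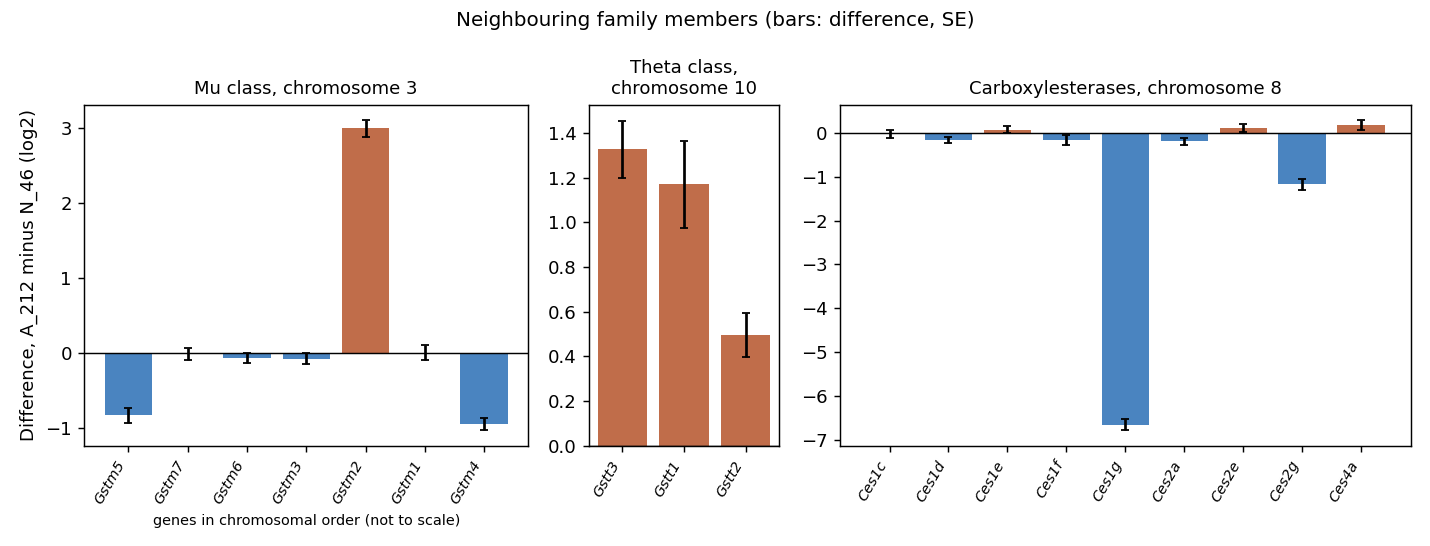
Difference, A_212 minus N_46, on the log2 scale with its SE, of mu transferases, theta transferases and carboxylesterases in their order along chromosomes 3, 10 and 8, not to scale. Bars above 0 are higher in A_212. Gstm2 at 3.0 stands between Gstm3 and Gstm1 near 0, the 3 theta genes are all above 0, and Ces1g at -6.65 stands beside Ces1f at -0.17.

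Bases upstream of the outermost RefSeq start (build GRCm38.p6) are shown for both extreme genes, each with a relative that was not called. Sequences in front of genes of the same chromosomal row with unlike differences can thus be compared. Gstm1 lies next to Gstm2, while Ces1f lies between Ces1e and Ces1g. The capitals mark matches, on either strand, to the TATA box TATAAA, to the antioxidant response element core TGACNNNGC or to the xenobiotic response element core TNGCGTG, the site of the dioxin receptor. Only a TATA match, TTTATA on the printed strand of Ces1g, is present in these 4.
Ces1g, chr8:93337210-93337459, minus strand: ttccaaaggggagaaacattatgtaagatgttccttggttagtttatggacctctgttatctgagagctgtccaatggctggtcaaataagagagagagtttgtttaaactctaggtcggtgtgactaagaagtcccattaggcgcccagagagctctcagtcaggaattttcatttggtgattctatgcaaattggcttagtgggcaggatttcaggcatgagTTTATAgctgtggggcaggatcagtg
Ces1e, chr8:93229632-93229869, minus strand: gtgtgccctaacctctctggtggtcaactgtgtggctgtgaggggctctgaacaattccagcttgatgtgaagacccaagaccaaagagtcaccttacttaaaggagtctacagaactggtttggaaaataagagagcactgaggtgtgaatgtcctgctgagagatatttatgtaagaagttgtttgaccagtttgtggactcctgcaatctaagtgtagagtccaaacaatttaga
Gstm2, chr3:107986421-107986670, minus strand: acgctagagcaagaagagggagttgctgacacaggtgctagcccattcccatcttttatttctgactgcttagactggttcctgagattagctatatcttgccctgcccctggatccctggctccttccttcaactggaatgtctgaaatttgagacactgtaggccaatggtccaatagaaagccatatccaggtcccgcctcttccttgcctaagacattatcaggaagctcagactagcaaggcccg
Gstm1, chr3:108017974-108018223, minus strand: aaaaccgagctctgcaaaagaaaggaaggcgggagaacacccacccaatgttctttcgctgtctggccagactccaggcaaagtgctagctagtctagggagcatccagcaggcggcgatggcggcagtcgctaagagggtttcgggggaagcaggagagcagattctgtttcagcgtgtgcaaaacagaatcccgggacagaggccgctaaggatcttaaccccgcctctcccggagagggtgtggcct
The Gstm2 and Gstm1 stretches were 44.7% identical in a global alignment, next to a median of 44.8% over all 231 pairs of 22 member promoters of that length and a highest value of 53.2%. That of Ces1g was 52.6% identical to that of Ces1c, a gene that was not called. The stretch of Ces1e is shorter and was not aligned. No match in Gstm2 means only that these letters are not in this window.

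All 3 theta transferases were higher in A_212. Theta enzymes act on small halogenated compounds, among other substrates. Gstt3 had 0.78, 0.96 and 0.48 in A_212, against -0.79, -0.49 and -0.48 in N_46, a difference of 1.33 ± 0.13. Gstt1 had 0.22, 1.12 and 0.95 in A_212, against -0.22, -0.43 and -0.56 in N_46, a difference of 1.17 ± 0.19. A_212 replicate 1 was the lowest of its line for Gstt1 and the lines still did not overlap. Gstt2 differed by 0.50 ± 0.10. The 3 genes lie close together on chromosome 10, Gstt3 beside Gstt1, and Gstt2 beyond 1 further protein-coding gene. The kappa transferase Gstk1 had 0.76, 1.39 and 0.50 in A_212, against -0.50, -0.56 and -0.83 in N_46. All A_212 plates were higher, by 1.51 ± 0.19.

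The remaining soluble transferases were lower in A_212 or not called. Gstp1, the pi enzyme that is widespread in brain and in cultured cells, had -0.30, -0.22 and -0.25 in A_212, against 0.22, 0.24 and 0.22 in N_46. The plates of each line were close together and the difference was -0.48 ± 0.07. Its only probe set has a suffix that marks possible matches to more than 1 transcript. Gstp3 differed by -0.19 ± 0.10, not called, and was called at -0.31 without A_212 replicate 3. Gsto1, the omega enzyme that also reduces dehydroascorbate, differed by -0.55 ± 0.10, with probe sets at -0.77 and -0.33 that were both called. Gstz1, the zeta enzyme of tyrosine breakdown, differed by -0.21 ± 0.10, not called, and was called at -0.31 without N_46 replicate 1. The alpha genes Gsta2 and Gsta4 are described with that plate below, and Gsta3 differed by 0.10 ± 0.07, not called, with 1 probe set called at 0.22 and 1 not called at -0.03.

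The membrane-bound transferases were all called, in both directions. Mgst1, an enzyme of the endoplasmic reticulum and outer mitochondrial membrane, had -0.74, -0.61 and -0.66 in A_212, against 0.80, 0.57 and 0.63 in N_46, a difference of -1.34 ± 0.08. This mean joins probe sets that disagree. The probe set whose suffix marks possible matches to more than 1 transcript gave -1.36, -1.23 and -1.59 in A_212, against 1.38, 1.23 and 1.27 in N_46, a difference of -2.68 ± 0.10. The plain one gave -0.12, 0.0098 and 0.27 in A_212, against 0.22, -0.08 and -0.0098 in N_46, a difference of 0.01 ± 0.12 with overlapping lines. With plain probe sets alone Mgst1 therefore had no call. Mgst2, which can form leukotriene C4, was higher in A_212 by 0.30 ± 0.07. Mgst3 was lower by 0.27, and its call was lost without A_212 replicate 1 (-0.26), N_46 replicate 2 (-0.24) or N_46 replicate 3 (-0.23). Of its probe sets, 1 was called at -0.33 and 1 not called at -0.21.

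**Figure D4:**
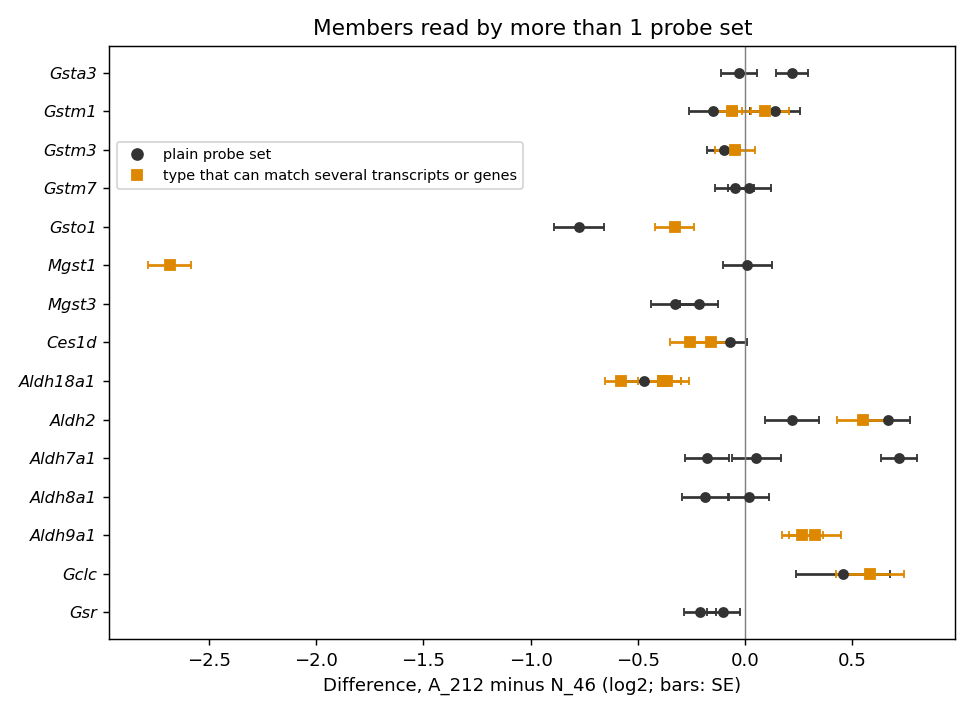
Difference, A_212 minus N_46, on the log2 scale with its SE, of each probe set of the 15 members that have more than 1. Circles are plain probe sets and squares are those whose suffix marks possible matches to more than 1 transcript or gene. The probe sets of Mgst1 at -2.68 and 0.01 and of Aldh7a1 between -0.18 and 0.72 disagree most.

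Among the aldehyde dehydrogenases no difference reached 2-fold. Aldh2, the mitochondrial enzyme of acetaldehyde, had 0.34, 0.43 and 0.06 in A_212, against -0.36, -0.15 and -0.09 in N_46. It was higher in A_212 by 0.48 ± 0.11, with probe sets at 0.67, 0.55 and 0.22, the last not called. Aldh1b1, a mitochondrial relative, went the other way. It had -0.44, -0.34 and -0.39 in A_212, against 0.34, 0.52 and 0.36 in N_46, a difference of -0.80 ± 0.08. Aldh3a2, the fatty aldehyde dehydrogenase that is deficient in Sjögren-Larsson syndrome in humans, was higher in A_212 by 0.54 ± 0.08, and Aldh3b1, which acts on lipid aldehydes, by 0.38 ± 0.09. Aldh1a7, a relative of Aldh1a1, differed by 0.48 ± 0.13, and by 0.39 with no call without A_212 replicate 3. Aldh9a1, an enzyme of carnitine synthesis, differed by 0.30 ± 0.10. Its call was lost without A_212 replicate 2 (0.26), A_212 replicate 3 (0.32) or N_46 replicate 1 (0.20), and 1 of its 2 probe sets was called, at 0.27, the other standing at 0.33. Aldh9a1 and Mgst3 are neighbours on chromosome 1 and were called in opposite directions.

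Amino acid pathways are served by several of these dehydrogenases. Aldh18a1, which makes the proline precursor pyrroline-5-carboxylate, was lower in A_212, with -0.22, -0.13 and -0.24 there, against 0.13, 0.34 and 0.25 in N_46. All 5 of its probe sets were called, between -0.58 and -0.36. The plain one gave -0.47, and the suffix of the others marks possible matches elsewhere. Aldh16a1 was lower by 0.36 ± 0.08. Aldh4a1, which breaks the same proline intermediate down, differed by 0.05 (95% interval -0.13 to 0.24) and was not called. Aldh6a1 of valine breakdown differed by 0.26, and by 0.38 with a call without N_46 replicate 1. Aldh7a1 of lysine breakdown had 1 probe set called at 0.72 and 2 not called at 0.05 and -0.18, and its mean of 0.20 was not called on the scale as deposited but was called after scaling of the arrays to equal medians (0.23) or equal 75th percentiles (0.21). Aldh8a1 differed by -0.08 and was not called. Of the retinaldehyde and folate enzymes left out of the families, Aldh1a1 was higher in A_212 by 3.20 ± 0.13, Aldh1a3 was lower by 0.36 ± 0.08, and Aldh1a2 and Aldh1l1, at -0.09 and -0.03, were not called.

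The companion genes make and recycle glutathione or serve as classical NRF2 targets. Nqo1, a quinone reductase, had 0.69, 0.64 and 0.34 in A_212, against -0.34, -0.75 and -0.81 in N_46. The lines did not overlap, and Nqo1 was higher in A_212 by 1.19 ± 0.13, or 2.28-fold. Gclc, the catalytic subunit of the enzyme that limits glutathione synthesis, had 0.31, 0.05 and -0.0036 in A_212, against 0.13, -0.71 and -0.62 in N_46. The lines overlapped through N_46 replicate 1. Gclc was called at 0.52 ± 0.19, and its value was 0.78 with a call without N_46 replicate 1. The call was lost without any 1 of the other arrays, with values from 0.37 without N_46 replicate 2 to 0.58 without A_212 replicate 3, and at 0.54 after scaling to equal 75th percentiles. The plain probe set of Gclc was not called (0.46), while the other probe set, whose suffix marks possible matches elsewhere, was called at 0.58 with the lines apart. Gclm, the modifier subunit of the same enzyme, had 0.21, 0.11 and -0.06 in A_212, against 0.06, -0.35 and -0.21 in N_46. Its difference of 0.25 ± 0.11 was not called, and was called at 0.37 without N_46 replicate 1. Gsr, the reductase that restores oxidised glutathione, had -0.04, -0.12 and -0.14 in A_212, against 0.08, 0.05 and 0.05 in N_46. The lines did not overlap, and the difference of -0.16 ± 0.07 was not called, with 1 probe set called at -0.21 and 1 not called at -0.10. Hmox1, the haem-degrading enzyme induced by many stresses, had 0.10, 0.09 and -0.09 in A_212, against 0.56, -0.95 and -1.07 in N_46. N_46 replicate 1 was the highest array of all and the other N_46 plates were the lowest. The difference of 0.52 ± 0.34 was not called, and it was 1.04 with a call without N_46 replicate 1, against 0.29 without N_46 replicate 2 and 0.23 without N_46 replicate 3.

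N_46 replicate 1 also lay apart in other members. It was at least 0.5 above both other plates of its line for 5 of 48 members (10.4%), Hmox1, Gclc, Gsta4, Aldh3a1 and Gsta2, where 84 of 12393 genes (0.678%) did so. This count and the next were made after these values had been seen. A_212 replicate 1 was at least 0.5 below both other plates of its line for 2 of 48 members (4.17%), Gstt1 and Aldh3a1, where 0.67% of all genes did so. The gap of N_46 replicate 1 to the nearer plate was 1.51 for Hmox1, and 0.0161% of all genes had a larger one. Gsta4, which conjugates the lipid peroxidation product hydroxynonenal, had -0.11, -0.0097 and -0.27 in A_212, against 0.80, 0.10 and 0.0097 in N_46. Its difference of -0.43 ± 0.17 was not called, and it was called without N_46 replicate 2 (-0.53) or N_46 replicate 3 (-0.58) but was -0.19, not called, without N_46 replicate 1. Gsta2 had -0.31, -0.24 and -0.10 in A_212, against 0.76, 0.10 and 0.24 in N_46, and was called at -0.58 ± 0.15, or at -0.39 without N_46 replicate 1. The only probe set of Gsta2 alone has a suffix that marks possible matches to more than 1 transcript. Aldh3a1, an enzyme abundant in cornea, had -0.21, 0.73 and 0.69 in A_212, against 0.21, -0.47 and -0.91 in N_46. Both lines had a replicate 1 unlike its other plates for this gene. Its difference of 0.79 ± 0.29 was not called, and it was called without A_212 replicate 1 (1.10) or N_46 replicate 1 (1.09), and after scaling of the arrays to equal medians (0.82) or equal 75th percentiles (0.80). In the opposite direction, Ces1g on that array was 3.13, at least 0.5 below the 3.67 and 3.63 of the other N_46 plates. What set this plate apart was not tested.

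**Figure D5:**
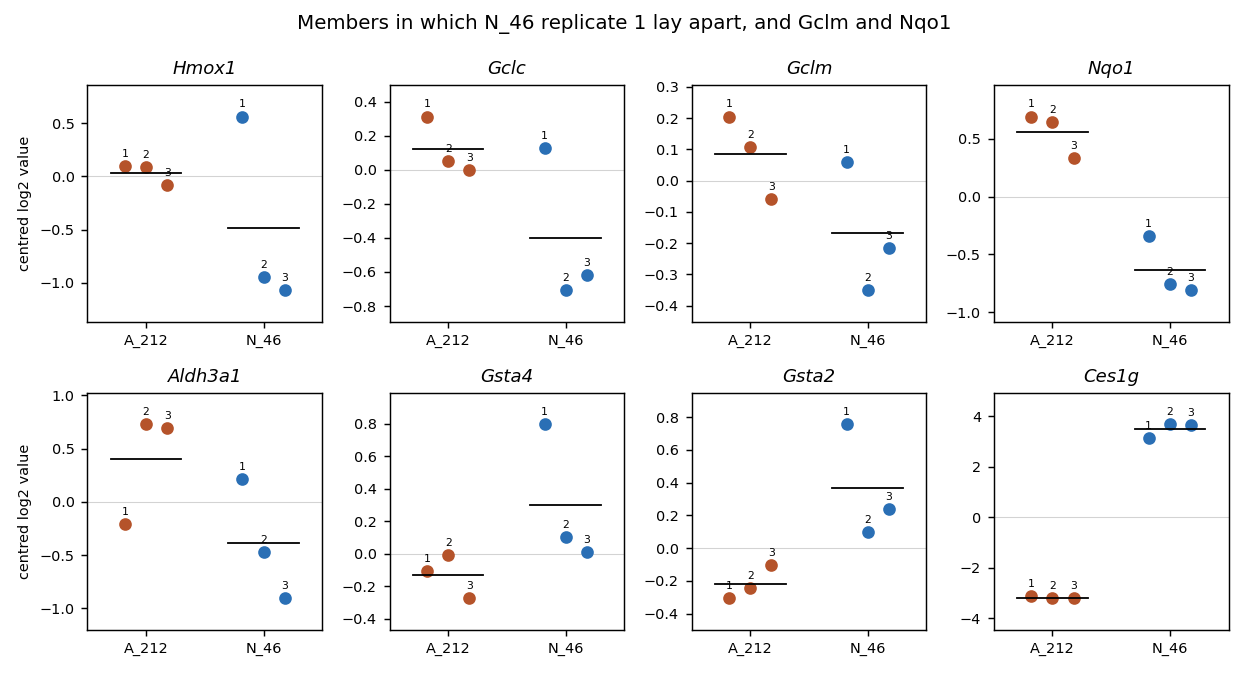
Centred log2 value of each array for 8 members, A_212 left and N_46 right, with replicate numbers and the mean as a line. The first 7 panels have N_46 replicate 1 as the highest N_46 plate, by 1.51 for Hmox1 and by 0.27 for Gclm, and Ces1g has it as the lowest.

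Upstream stretches of companion genes and of Mgst1 are printed because NRF2 acts through the antioxidant response element. The capitals mark the same 3 motifs as above. The core stands on the reverse strand in Gclm and in Mgst1, and Nqo1 has the TATA box alone. Stretches of Gstm5 (-0.83), Aldh9a1 (0.30) and Gsta3 (0.10, not called) also hold the core and are not printed.
Gclm, chr3:122245307-122245486, plus strand: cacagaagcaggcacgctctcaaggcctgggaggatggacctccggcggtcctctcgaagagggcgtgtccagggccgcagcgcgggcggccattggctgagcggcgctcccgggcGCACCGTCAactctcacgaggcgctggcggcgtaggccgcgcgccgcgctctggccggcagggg
Mgst1, chr6:138140277-138140526, plus strand: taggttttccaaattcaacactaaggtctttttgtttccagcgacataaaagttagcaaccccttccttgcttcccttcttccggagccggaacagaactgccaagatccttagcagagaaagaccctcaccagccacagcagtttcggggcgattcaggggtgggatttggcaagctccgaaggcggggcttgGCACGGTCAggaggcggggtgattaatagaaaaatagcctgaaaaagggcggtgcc
Nqo1, chr8:107403206-107403455, minus strand: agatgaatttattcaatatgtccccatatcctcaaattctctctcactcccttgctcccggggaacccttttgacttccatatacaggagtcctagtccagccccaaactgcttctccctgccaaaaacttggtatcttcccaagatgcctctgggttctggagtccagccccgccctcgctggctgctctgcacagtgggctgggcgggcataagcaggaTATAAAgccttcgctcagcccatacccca
Of 48 members, 38 had 1 or more promoters in the RefSeq table, 47 in all. Over the 250 bases before each listed start, the antioxidant core was present in 6 of these 47, against 10.2% of 32851 promoters of all genes. The genes named above are not all of these 6. Windows with few bases before the outermost start were counted but left out of the stretches described. The xenobiotic core was present in 4, against 4.10%, and the TATA box in 7, against 12.4%. A match is a description of letters and not a site, and elements farther upstream are outside this window.

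Genes that work with these enzymes also went both ways. Of 28 measured genes of NRF2, its partners and its other targets, 9 were higher and 9 lower in A_212 and 10 did not pass, with a median of 0.04. That is 64.3% called, against 39.2% of all genes, 18.3% higher and 20.9% lower. Nfe2l2 itself had -0.13, -0.19 and -0.36 in A_212, against 0.43, 0.20 and 0.13 in N_46, and was lower by 0.48 ± 0.10. Keap1 had 0.20, 0.17 and 0.04 in A_212, against -0.17, -0.08 and -0.04 in N_46. It was called at 0.24 ± 0.08, a call that was kept without A_212 replicate 3 and lost without any 1 of the other arrays (0.20 to 0.26). Malic enzyme (Me1, 1.02) and the pentose phosphate enzyme Pgd (0.52), which supply NADPH, were higher in A_212. The carbonyl reductase Cbr3 (-1.39) and thioredoxin reductase 1 (Txnrd1, -0.86) were lower. N_46 replicate 1 was at least 0.5 above both other N_46 plates in 0 of these 28 genes, against 0.678% of all genes, a limit set after values had been seen. The count is near the share over all genes and says nothing particular about this list. Below that limit, it was above both by 0.40 for Bach1, a repressor of such targets, by 0.39 for the autophagy adaptor Sqstm1 and by 0.35 for the catalase gene Cat. A larger gap was present in 1.19%, 1.23% and 1.6% of all genes, and these 3 genes were picked for their gaps.

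Of 22 measured genes that use, make or recycle glutathione, 7 were higher and 6 lower in A_212, and 9 did not pass. Called were 59.1% of them, against 39.2% of all genes. Gpx7, a peroxidase of the endoplasmic reticulum, had 1.30, 1.48 and 1.17 in A_212, against -1.17, -1.31 and -1.21 in N_46, a difference of 2.55 ± 0.09. Oplah (1.87), which opens 5-oxoproline in glutathione turnover, was also higher. Chac1, which degrades glutathione (-1.33), and Slc7a11, the cystine importer (-0.81), were lower in A_212. Of 31 genes of other drug metabolism, 13 were higher and 7 lower, and 11 did not pass (64.5% called). The NRF2 list shares 2 of its genes with the glutathione list and 2, Cbr1 and Ephx1, with that of drug metabolism, so these are counted in both. Paraoxonase 3 (Pon3, 3.10) and xanthine dehydrogenase (Xdh, 2.70) were higher in A_212, and the alcohol dehydrogenase Adh7 (-3.42) and the dioxin receptor Ahr (-1.10) were lower. Of 27 genes of neighbouring lipid, aldehyde and amino acid metabolism, 2 were higher and 10 lower, and 15 did not pass. Their 44.4% called is near the 39.2% of all genes. Lipoprotein lipase (Lpl, -1.70) and the mitochondrial folate enzyme Mthfd2 (-1.03) were lower in A_212.

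Some marker genes of other cell types differed on the same arrays. Over all genes, 39.2% were called, 18.3% higher and 20.9% lower in A_212. Called were 83.3% of the fibroblast and mesenchymal markers and 50% of the astrocyte markers. The shares were 33.3% of the neuronal, 37.5% of the microglial, and 11.1% of the epithelial and hepatocyte markers. Of 12 fibroblast and mesenchymal markers, 9 were higher and 1 lower in A_212, among them Cdh11 (5.74), Mmp2 (5.26) and Col1a1 (-0.55). The median over that list lay between 1.5 and 1.76 on the A_212 arrays, against -1.67 to -1.47 on the N_46 arrays. Of 12 neuronal markers, 2 were higher and 2 lower and 8 did not pass. Stmn2 (3.09) and Tubb3 (1.13) were higher in A_212, and Map2 (-0.25) and Gap43 (-0.24) were lower. Without N_46 replicate 2, 2 neuronal markers in all were called. Astrocyte markers gave 3 higher, 2 lower and 5 of 10 not past the test. Microglial markers gave 2, 1 and 5 of 8, and epithelial and hepatocyte markers 1, 0 and 8 of 9. Which of these markers are absent cannot be read from centred values, so whether the lines are neuronal could not be checked as a level. The part of such cell type differences in the member genes was not tested.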

How the data were processed

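Each of 6 arrays, 3 per line, measured 1 plate. The deposited table holds log2 values of 22690 probe sets. The submitters' processing notes name RMA without a version. The deposited log2 values were centred per probe set (row medians 0 within 5e-07), by a step no source describes. They were used as deposited.

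Gene names came from GEO's platform annotation, in which 20380 probe sets had 1 gene, 691 several, 1555 none, and 64 were controls. Gene values are means of all probe sets of 1 gene alone (12393 genes). The 48 members were all found in the RefSeq gene table of GRCm38.p6, used for neighbours only. Lines were compared with limma 3.58.1 in R 4.3.3 (lmFit, eBayes, two-sided, Benjamini-Hochberg, adjusted p under 0.05), checked on simulated data. Python 3.11.15, numpy 2.4.6 and pandas 2.3.3 were also used. Members and lists were chosen with earlier results of these data known. All members could be named, with array values for those called at 2-fold, for the companion genes and for others of interest after their values were seen. From each list at most 2 called genes each way were named, plus Nfe2l2 and Keap1. The number of arrays limits the precision. Alternatives were other scalings, a replicate block, array weights, robust eBayes, plain or single probe sets, stricter calls and each array left out. Deviations of same-numbered plates correlated at -0.03, -0.01 and 0.09, and those of unlike-numbered plates between -0.10 and 0.12. These values cannot show whether plates were paired. No source states a pairing, and the main fit had no block.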

Additional observations from a re-analysis of the deposited data

How the results depend on the processing

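Under array scaling, weights, a robust fit, the probe set with the largest spread or 1 array left out, between 23 and 33 of 48 member genes were called, next to 25 in the fit as reported. With plain probe sets alone, which 42 of the 48 have, 21 were called. Leaving out 1 array gave 23 to 29 genes (10 to 16 higher and 11 to 15 lower in A_212) and 30 to 39 of 71 member probe sets (14 to 19 higher and 15 to 20 lower), next to 35. Under the replicate block 27 genes and 36 probe sets were called, Gclm and Gsta4 being added, and no member's call was lost. Shares over the whole array were counted for the fit as reported only, at 39.2% of genes and 37.4% of probe sets. Whether these changes in count follow the whole array therefore cannot be told. At 2-fold, 8 genes and 8 probe sets were called, 5 higher and 3 lower, against 5.83% of all genes and 5.97% of all probe sets. The 2-fold rule left 4 of 13 called genes of glutathione use, 2 of 18 of the NRF2 list, 8 of 20 of drug metabolism, 2 of 12 of lipid and aldehyde neighbours, 2 of 4 neuronal and 1 of 3 microglial markers. At an adjusted p under 0.01, 7 lipid and aldehyde neighbours and 2 neuronal markers were called. Plain probe sets alone called 3 of 5 astrocyte markers. Neuronal markers numbered 2 without N_46 replicate 2, the lowest of its range of 2 to 4 over arrays left out. Mgst1 changed sign to 0.0112 with plain probe sets alone, which is its plain probe set by itself (0.0112), because its other probe set is then missing. The cause of the other changes was not tested. Centring removed signal over background, so how dim a probe set was is unknown.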

Other observations

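Probe sets that the annotation gives to several genes were not used for the members. One names Gm3776, Gsta2 and Gsta1, near-identical alpha transferase genes. It had -1.14, -1.15 and -1.24 in A_212, against 1.90, 1.14 and 1.17 in N_46, a difference of -2.58. The lines lay apart and N_46 replicate 1 was highest. The probe set of Gsta2 alone gave -0.58. The other names Ces3a and Ces3b, and gave -0.06, -0.30 and 0.25 in A_212, against -0.08, 0.20 and 0.06 in N_46, a difference of -0.10 with overlapping lines.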
